A study of Mus musculus with 4 samples.

Results

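The genes of the synaptonemal complex and its HORMA domain partners were followed in testis RNA with and without PIWIL1. The 9 genes were chosen by name: Sycp1, Sycp2, Sycp3, Syce1, Syce2, Syce3, Tex12, Hormad1 and Hormad2. Earlier results of these data were known when they were chosen. All 9 were found among the 22808 gene identifiers of the RNA-seq table. Testis RNA at postnatal day 23 was sequenced in 1 library of Piwil1-/- mice and 1 library of Piwil1+/- mice. The heterozygotes are the only control for the genotype, and no wild-type testis RNA library was analysed here. The labels used here name neither the mutant allele, the strain of these mice, nor how many animals stand behind a library. The series also holds 2 libraries of small RNAs bound to PIWIL1 in adult testis, which were not used here.

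In meiotic prophase, homologous chromosomes are held along their lengths by the synaptonemal complex. Each chromosome first folds along a protein axis, which becomes the lateral element. Transverse filaments then bridge the 2 lateral elements, and a central element joins the filaments in the middle. HORMA domain proteins sit on axes that have not yet paired and recruit checkpoint kinases there. In testis these proteins are made by spermatocytes, and mice that lack them arrest in prophase or lose crossovers. PIWIL1, also called MIWI, is a PIWI protein of pachytene spermatocytes and round spermatids that binds piRNAs.

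Most of the 9 genes were close to equal between the genotypes. The genes of the lateral element and the transverse filament, together with both HORMA genes, lay slightly higher in Piwil1-/- testis, by 7.96% to 13.4%. Of the 4 central element genes, Syce1 was nearly level and Syce2 was lower. The counting intervals of Syce3 and Tex12, from read numbers known only as minima, were too wide to place them on either side. No gene of the 9 differed by 1.2-fold or more on the log2 (RPKM + 1) scale, in which 1 is added to each value before the logarithm. With 0.1 added instead, Syce3 passed it on the lower side, at a log2 ratio of -0.55. RPKM counts reads per kilobase of gene, scaled to the depth of the library. With 1 library per genotype, there is no replicate check and no p-value.

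Promoter windows of the 9 genes are shown first, because 5 of them share a short sequence upstream of an annotated start. The palindrome CACGTG is an E-box, a site read by basic helix-loop-helix proteins such as MAX and its partner MGA. In mouse cells outside the germline, a Polycomb complex that holds MGA and E2F6 keeps many germline genes silent. The windows are those of RefSeq on GRCm38.p6, from 250 bases before to 50 bases after a start, and all 9 genes had 1 or more. CACGTG was found in windows of Sycp1, Sycp3, Syce2, Tex12 and Hormad1, 5 of 9 genes. It stood in 7.15% of the 32851 windows in the table and in 11.9% of the 7831 windowed genes that reached an RPKM of 1 in at least 1 library. Among the 171 windowed genes with a mean of 100 RPKM or more over both libraries, the class of Sycp1, Sycp3 and Hormad1, the share was 17.0%. Lines give the gene, the region, the strand printed 5′ to 3′, the first base of the match counted from the start, and the sequence, with CACGTG in capitals. Sycp3 and Hormad1 hold a pair of matches each, and Sycp3 is given as its whole window to show one at full length.
Sycp1, chr3:102936169-102936214, minus strand, match at -94: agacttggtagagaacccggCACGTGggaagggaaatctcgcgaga
Syce2, chr8:84872150-84872195, plus strand, match at -88: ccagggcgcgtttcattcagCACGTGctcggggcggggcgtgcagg
Tex12, chr9:50561336-50561381, minus strand, match at -93: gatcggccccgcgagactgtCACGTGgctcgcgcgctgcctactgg
Hormad1, chr3:95559600-95559645, plus strand, match at -57: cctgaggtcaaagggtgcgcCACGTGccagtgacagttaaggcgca
Hormad1, chr3:95559637-95559682, plus strand, match at -20: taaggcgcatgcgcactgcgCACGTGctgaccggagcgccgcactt
Sycp3, chr10:88459337-88459636, plus strand, matches at -64 and -43: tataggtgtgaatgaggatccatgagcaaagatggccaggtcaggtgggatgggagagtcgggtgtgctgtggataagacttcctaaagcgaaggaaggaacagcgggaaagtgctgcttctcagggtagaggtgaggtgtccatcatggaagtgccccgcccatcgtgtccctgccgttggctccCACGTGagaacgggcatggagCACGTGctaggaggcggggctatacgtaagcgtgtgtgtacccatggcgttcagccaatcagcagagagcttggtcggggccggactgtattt
The 7 matches lay between 94 and 20 bases before an annotated start. Of the 7831 genes, 929 held CACGTG anywhere in their windows and 455 held it within 100 bases before a start. The Syce2 match was counted from the more downstream of the gene's annotated starts. It lies downstream of the upstream start, chr8:84872111, inside the gene, and outside the window of that start.

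The other 2 sequences searched for were an E2F-type site, TCCCGC, and AACTGNC, a form of the site of MYB proteins. MYBL1 is the MYB protein that switches on pachytene genes in mouse testis. Both strands were read for each, and no match of one overlapped a match of another in the windows of the 9 genes. TCCCGC stood in windows of the same 5 genes that hold CACGTG, against 38.3% of the 7831 genes and 44.4% of the 171. Both sequences together were present in 5.26% of the 7831 genes. AACTGNC was found in Sycp2, Syce1, Syce2 and Hormad1, 4 of 9 genes, against 14.1% of the 7831 genes and 17.5% of the 171. Windows of Syce3 and Hormad2 held none of the 3. The Hormad2 window, chr11:4441033-4441332, belongs to a start inside the gene, whose span reaches 4441198 on the minus strand. Bases further upstream of Hormad2 than this window were not searched. The Sycp2 window also belongs to a start inside the gene. Its AACTGNC match, chr2:178407765-178407771, lies within the Sycp2 span, which reaches 178407776. The motifs were not fixed before the windows were read, and a match describes letters in a window and not the binding of a factor.

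**Figure D1:**
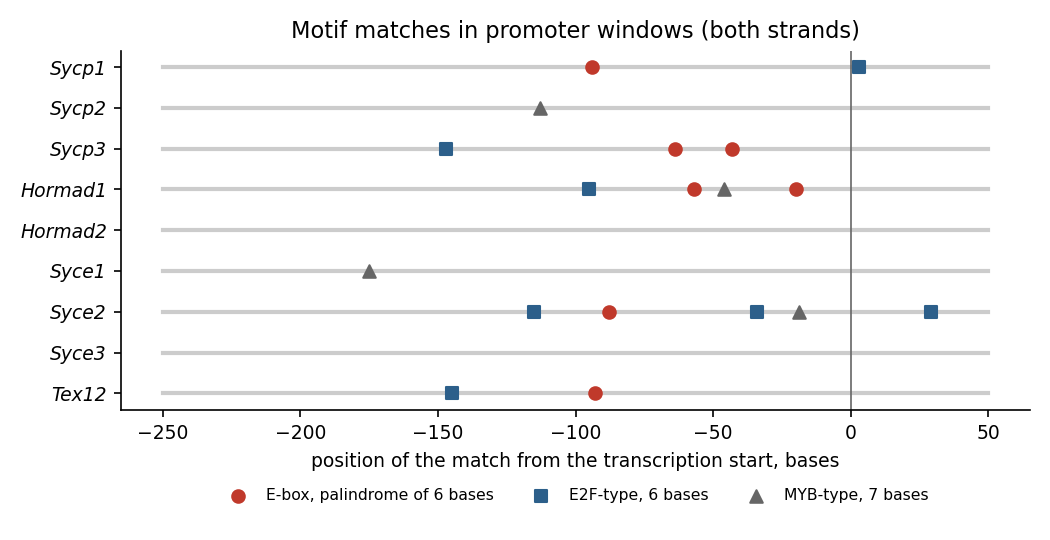
Matches of 3 short sequences in the promoter windows of the 9 genes, by distance in bases from the transcription start, on both strands; grey lines are the windows. Circles (CACGTG, the E-box) lie between positions -94 and -20 in Sycp1, Sycp3, Syce2, Tex12 and Hormad1, the genes that also hold the squares (TCCCGC), while Hormad2 and Syce3 hold no match. Matches of Syce2 are counted from different annotated starts. Those at -115 (TCCCGC) and -19 (AACTGNC) are counted from the upstream start and the others from the downstream one. Their order along the Syce2 line is therefore not their order in the genome. Windows of Sycp2 and Hormad2 belong to starts inside these genes, and the Sycp2 match lies within the gene's span.

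The totals behind the scaling, worked out from the values themselves, were 100254357 reads for Piwil1-/- and 104014686 reads for Piwil1+/-. Piwil1 was listed at 0 RPKM in Piwil1-/- and at 26.2 RPKM in Piwil1+/- testis, matching the labels. An RPKM of 1 was reached in at least 1 library by 9951 genes, called genes tested below although no statistical test was possible, and their median log2 ratio was 0.0055. A level lower by 2-fold or more in Piwil1-/- was found for 1.96% of them and one higher by 2-fold or more for 0.231%. The shares past 1.2-fold were 12.7% on the lower side and 8.40% on the higher side. Syce3 did not reach an RPKM of 1 in either library, so 8 of the 9 genes are among the genes tested.

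Levels fell into a high and a low class. Sycp1, Sycp2, Sycp3, Syce1 and Hormad1 were above 100 RPKM in both libraries, and Hormad2, Syce2, Tex12 and Syce3 below 10 RPKM in both. RPKM is a level per length, so listed levels of genes can be set against each other within a library. The annotation and the counting of reads are not known here, and their part in differences between genes was not tested. The order in Piwil1-/- was Sycp2, Sycp3, Sycp1, Syce1, Hormad1, Hormad2, Syce2, Tex12 and Syce3, and it was the same in Piwil1+/-. In Piwil1-/-, every neighbouring pair in this order differed by more than its counting interval. In Piwil1+/-, 2 neighbouring pairs did not: Sycp1 was 1.01 times the level of Syce1 (interval 0.985 to 1.03), and Hormad2 was 1.08 times that of Syce2 (0.959 to 1.21). The intervals are exact binomial intervals at 95%, cover counting error only, and say nothing of differences between animals.

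**Figure D2:**
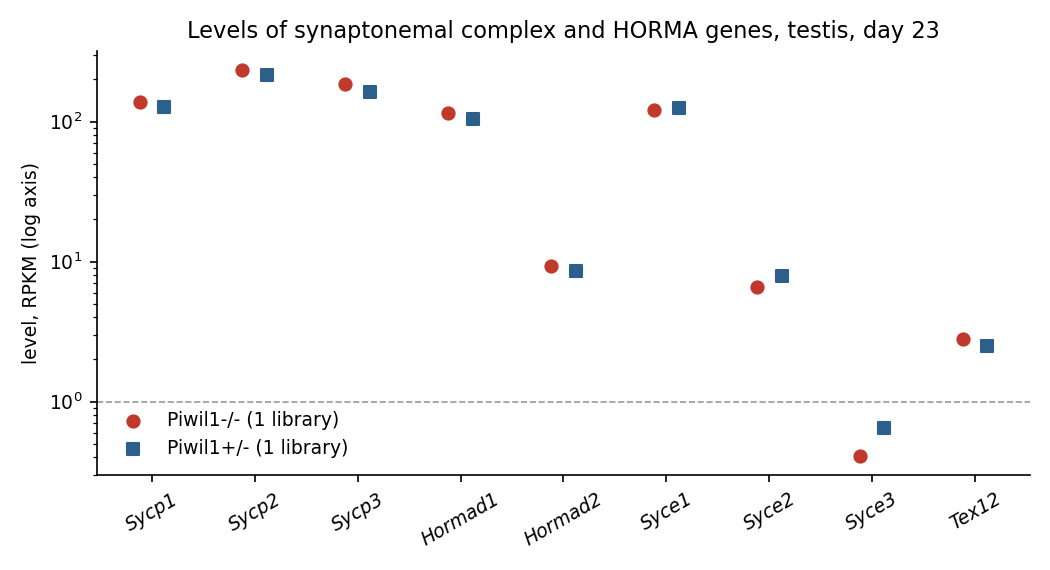
Level of each gene in RPKM on a log axis, with 1 circle for the Piwil1-/- library and 1 square for the Piwil1+/- library; the dashed line marks 1 RPKM. Sycp2 is highest, at 233 RPKM in Piwil1-/- and 216 RPKM in Piwil1+/-, 5 genes stand above 100 RPKM in both libraries, and Syce3 lies below the line at 0.411 RPKM in Piwil1-/- and 0.648 RPKM in Piwil1+/-.

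SYCP1 is the transverse filament, the rod that spans from lateral element to central element. Sycp1 (ENSMUSG00000027855.13, chr3:102818499-102936100, minus strand) was at 138 RPKM in Piwil1-/- and 126 RPKM in Piwil1+/- testis. It ranked 131 of all 22808 identifiers in Piwil1-/- and 159 in Piwil1+/-. Its fold, Piwil1-/- over Piwil1+/-, was 1.10, with a counting interval of 1.08 to 1.11 from at least 30102 reads in Piwil1-/- and 28501 in Piwil1+/-. The Piwil1-/- library was thus the higher one by a small margin that exceeds counting error. Read numbers are the smallest whole numbers that fit the deposited values, so the intervals can be too wide but not too narrow for counting error.

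SYCP2 and SYCP3 make the lateral element, where SYCP3 assembles into fibres and SYCP2 links them to the axis. Sycp2 (ENSMUSG00000060445.11, chr2:178345295-178407776, minus strand) was at 233 RPKM in Piwil1-/- and 216 RPKM in Piwil1+/-, at rank 48 of all identifiers in Piwil1-/- and rank 62 in Piwil1+/-. Its fold was 1.08 (1.07 to 1.09), from at least 59105 reads in Piwil1-/- and 56801 in Piwil1+/-. Sycp2 had the highest level of the 9 genes and, of the 5 genes higher beyond counting error, the smallest fold. Sycp3 (ENSMUSG00000020059.9, chr10:88459587-88473236, plus strand) was at 185 RPKM in Piwil1-/- and 163 RPKM in Piwil1+/-. Its fold of 1.13 (1.10 to 1.16) rests on at least 11359 reads in Piwil1-/- and 10397 in Piwil1+/- and is the largest of those 5. The level of Sycp2 relative to Sycp3 was 1.26 in Piwil1-/- and 1.32 in Piwil1+/-, a quotient of 0.952 (0.925 to 0.981). The 2 lateral element genes therefore differed in proportion beyond counting error, in a comparison that no scaling of the libraries can change.

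HORMAD1 and HORMAD2 mark unpaired axes and are stripped off as the synaptonemal complex forms. Hormad1 (ENSMUSG00000028109.14, chr3:95559677-95587863, plus strand) was at 115 RPKM in Piwil1-/- and 103 RPKM in Piwil1+/-. Its fold was 1.11 (1.09 to 1.13), from at least 26280 reads in Piwil1-/- and 24500 in Piwil1+/-. Hormad2 (ENSMUSG00000020419.11, chr11:4345801-4441198, minus strand) was far lower, at 9.29 RPKM in Piwil1-/- and 8.53 RPKM in Piwil1+/-. It had a fold of 1.09 (1.03 to 1.16), from at least 2196 reads in Piwil1-/- and 2092 in Piwil1+/-. Hormad1 stood at 12.4 times the level of Hormad2 in Piwil1-/- and 12.1 times in Piwil1+/-. The quotient of these ratios was 1.02 (0.960 to 1.09), an interval that holds 1, so a difference in the proportion of the 2 genes was not detectable at this depth.

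Central element genes were spread over the widest range of levels. SYCE1 lies at the central element with SYCE3, and Syce1 (ENSMUSG00000025480.5, chr7:140777229-140787854, minus strand) was the one central element gene of the high class. It was at 122 RPKM in Piwil1-/- and 125 RPKM in Piwil1+/-, a fold of 0.972 (0.942 to 1.003), from at least 7609 reads in Piwil1-/- and 8120 in Piwil1+/-. Equality lay inside the interval for Syce1, unlike for the other 4 genes above 100 RPKM. Relative to Sycp1, Syce1 was at 0.879 in Piwil1-/- and 0.991 in Piwil1+/-, a quotient of 0.887 (0.856 to 0.919). Beyond counting error, the central element gene thus made up less of the pair in Piwil1-/-.

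SYCE2 and TEX12 bind each other and form the fibres that run along the central element. Syce2 (ENSMUSG00000003824.12, chr8:84872111-84887446, plus strand) was at 6.61 RPKM in Piwil1-/- and 7.92 RPKM in Piwil1+/-. Its fold was 0.834 (0.707 to 0.985), from at least 263 reads in Piwil1-/- and 327 in Piwil1+/-, and it was the only one of the 9 genes whose whole interval lay below 1. Tex12 (ENSMUSG00000032065.6, chr9:50557148-50561268, minus strand) was at 2.82 RPKM in Piwil1-/- and 2.48 RPKM in Piwil1+/-. The fold of Tex12 was 1.13 with a wide interval, 0.682 to 1.89, since as few as 35 reads in Piwil1-/- and 32 in Piwil1+/- fit its values. The proportion of Syce2 to Tex12 was 2.35 in Piwil1-/- and 3.19 in Piwil1+/-, and its quotient of 0.735 had an interval of 0.428 to 1.26. The data do not show that these partners differed in their response.

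SYCE3 is a small protein that is needed early in the building of the central element. Syce3 (ENSMUSG00000078938.9, chr15:89390174-89410503, minus strand) was the lowest of the 9 genes, at 0.411 RPKM in Piwil1-/- and 0.648 RPKM in Piwil1+/-. These values correspond to 41.2 reads per kilobase in Piwil1-/- and 67.4 in Piwil1+/-, and the smallest read numbers that fit are 11 in Piwil1-/- and 18 in Piwil1+/-. The fold of 0.634 had an interval of 0.271 to 1.42, so neither a difference nor equality can be read from it. Sycp1 was at 337 times the level of Syce3 in Piwil1-/- and 195 times in Piwil1+/-.

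**Figure D3:**
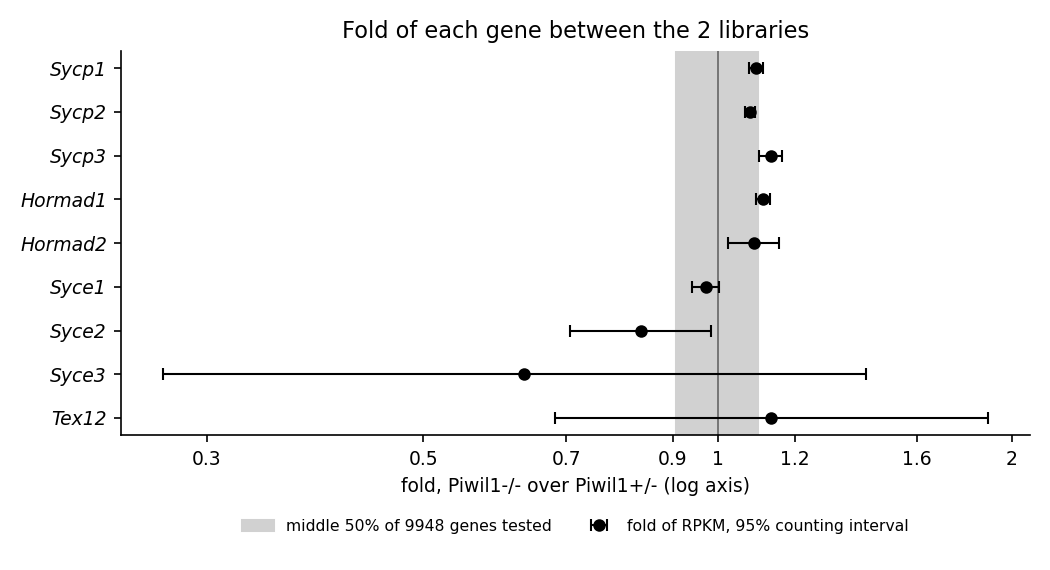
Fold of RPKM, Piwil1-/- over Piwil1+/-, on a log axis, with 95% counting intervals as bars; the grey band holds the middle 50% of the 9948 genes tested with a value above 0 in both libraries, from 0.906 to 1.10. Sycp1, Sycp2, Sycp3, Hormad1 and Hormad2 lie between 1.08 and 1.13, at or near the upper edge of the band, and Syce2 lies below it at 0.834.

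Counted together, the counting interval lay above 1 for Sycp1, Sycp2, Sycp3, Hormad1 and Hormad2, 5 of 9 genes, and below 1 for Syce2. Over all genes tested, the interval lay above 1 for 27.4% and below 1 for 26.8%, so an interval that leaves out 1 is common at this depth and does not by itself mark a difference between genotypes. The median log2 ratio of the 9 genes was 0.11, beside 0.0055 for all genes tested, and 6 of 9 lay above 0, beside 51.2% of all genes tested. Summed over the 9 genes, the level was 812 RPKM in Piwil1-/- and 753 RPKM in Piwil1+/-, 1.08-fold.

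The size of these ratios was compared with that of other genes at the same level. At a mean of 100 RPKM or more there were 232 genes, with a median log2 ratio of -0.012, quartiles of -0.072 and 0.054, and a 5th to 95th percentile range of -0.22 to 0.18. Log2 ratios of Sycp1 (0.13), Sycp2 (0.11), Sycp3 (0.18) and Hormad1 (0.15) lay above the upper quartile of that class, and Syce1 (-0.040) within its quartiles. Sycp3 stood at the 95th percentile of the class to 2 decimals, and none of the 5 genes lay outside the 5th to 95th percentile range. Among the 5886 genes with a mean of 1 to 10 RPKM the quartiles were -0.12 and 0.12. There, Hormad2 (0.11) lay within them, Tex12 (0.13) just above, and Syce2 (-0.23) below, at the 14.3 percentile of all genes tested.

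Whether the authors counted by strand is not stated in the labels or headers, so genes that overlap a member were read beside it. According to RefSeq, 3 members overlap a measured gene on the opposite strand. Chpt1, an enzyme of choline phospholipid synthesis, overlaps Sycp3 over 3724 bp and was at 17.1 RPKM in Piwil1-/- and 19.9 RPKM in Piwil1+/-, a log2 ratio of -0.21 where Sycp3 had 0.18. Gcdh, a mitochondrial glutaryl-CoA dehydrogenase, overlaps Syce2 over 1060 bp and was at 1.37 RPKM in Piwil1-/- and 1.73 RPKM in Piwil1+/-. Its log2 ratio of -0.20 is near that of Syce2, and the part of shared reads in the Syce2 value was not tested. Il18, a cytokine gene, spans Tex12 over all its 4121 bp and was at 0.465 RPKM in Piwil1-/- and 0.468 RPKM in Piwil1+/-. Of the 18 nearest measured genes to either side of the members, 8 were among the genes tested, with log2 ratios from -0.066 (Cpt1b, beside Syce3) to 0.32 (Zfp941, beside Syce1).

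The wider machinery of meiotic prophase was read from 6 lists with 49 genes, of which 41 were among the genes tested. None of the 41 was 2-fold lower or higher. At least 1.2-fold higher in Piwil1-/- were 6 genes, against 8.40% of all genes tested, and none was 1.2-fold lower, against 12.7%. The median log2 ratio was 0.051, and 30 of the 41 lay above 0, beside 51.2% of all genes tested. These lists were chosen with earlier results of these data known, so the shares only describe them.

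Genes of proteins that act where synapsis starts had a median log2 ratio of 0.11. The 9 genes tested of the 11 listed were all above 0, beside 51.2% of all genes tested, from 0.0096 (Msh4, a MutS homologue that stabilises recombination intermediates) to 0.20 (Ccnb1ip1, which encodes the crossover ubiquitin ligase HEI10). The counting interval lay above 1 for 4 of the 9, beside 27.4% of all genes tested, and held 1 for the other 5, among them Msh4 and Tex11, a protein of early synapsis sites. Sycp2l, listed but below an RPKM of 1 in both libraries, had a log2 ratio of -0.11 and a fold of 0.346 (0.0813 to 1.14). Cohesins of the meiotic axis had a median of 0.051 over 5 genes. Smc1b, a meiotic cohesin, was highest at 77.2 RPKM in Piwil1-/- and 72.05 RPKM in Piwil1+/- (log2 ratio 0.099), and Rec8, the meiotic kleisin, lowest at 6.25 RPKM in Piwil1-/- and 7.34 RPKM in Piwil1+/- (-0.20). Genes that anchor telomeres to the nuclear envelope had a median of 0.032 over 6 genes, from Cdk2, a kinase found at telomeres in spermatocytes (-0.19), to Terb1, a telomere adaptor (0.28).

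Larger ratios were found among genes of axis regulation, recombination and checkpoint signalling. Ccdc36, also called Iho1, whose protein binds HORMAD1 and promotes DNA breaks, was at 9.06 RPKM in Piwil1-/- and 5.56 RPKM in Piwil1+/-, 1.63-fold (1.50 to 1.77). The other axis regulators tested were near level, down to Ankrd31 at -0.036, and the list's median was 0.025 over 3 genes. Brca2, which loads recombinases on broken DNA, was at 29.5 RPKM in Piwil1-/- and 16.6 RPKM in Piwil1+/-, 1.78-fold (1.70 to 1.86). Its list, break formation and repair, had a median of 0.019 over 14 genes, and the lowest was Mnd1, a strand exchange cofactor, at -0.17. Atr, the checkpoint kinase that HORMA proteins help to recruit, was at 193 RPKM in Piwil1-/- and 125 RPKM in Piwil1+/-, 1.54-fold (1.53 to 1.55). The 4 genes tested of the unsynapsed chromatin list all lay above 0, from 0.011 for Mdc1, a DNA damage adaptor whose counting interval held 1, with a median of 0.18.

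**Figure D4:**
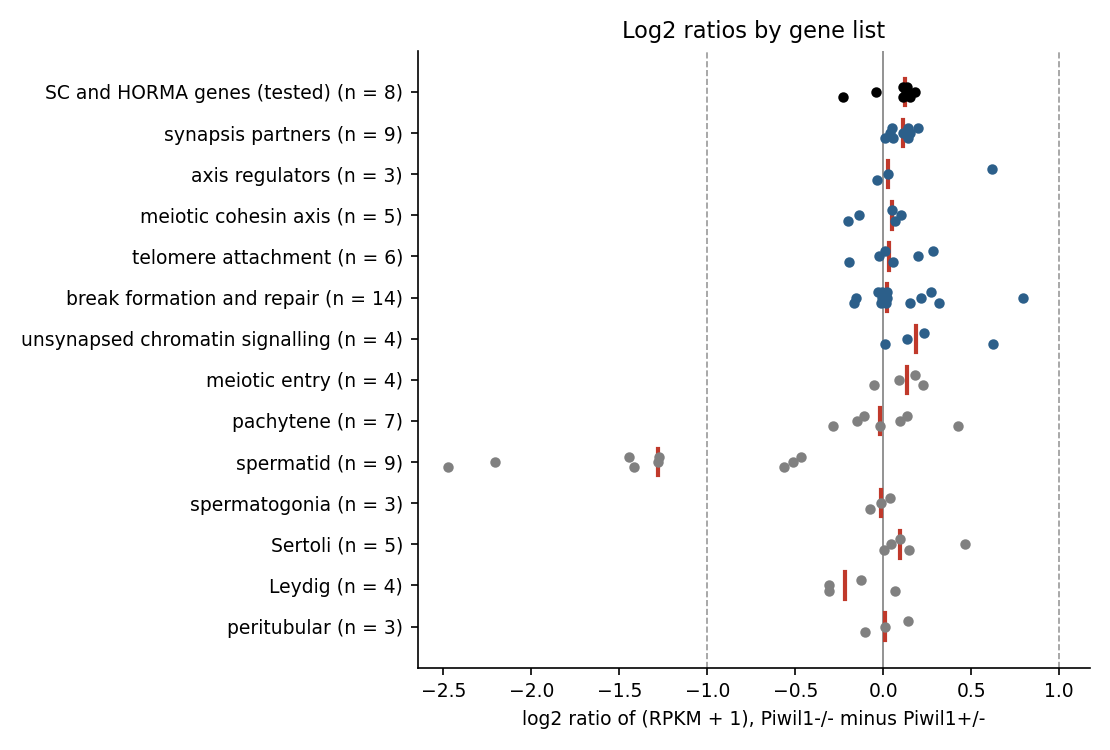
Log2 ratio of (RPKM + 1), Piwil1-/- minus Piwil1+/-, with 1 point per gene tested and the median as a red bar; black points are the synaptonemal complex and HORMA genes, blue points the lists of the prophase machinery and grey points cell markers, and dashed lines mark 2-fold. Prophase lists have medians between 0.019 and 0.18, while the spermatid markers lie to the left with a median of -1.28.

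Markers of other testis cells differed between the libraries beside these ratios. In bulk testis, fewer cells of a type and less RNA per cell cannot be told apart. Spermatid markers were lower in Piwil1-/-: 9 of 11 were tested, with log2 ratios from -0.47 (Catsper1) to -2.47 (Cabs1), and 6 of the 9 were lower by 2-fold or more. The summed level of the list was 94.6 RPKM in Piwil1-/- against 212 RPKM in Piwil1+/-. Tnp1, Prm1 and Prm2 were listed at 0 in Piwil1-/- and at 0.458, 0.0616 and 1.42 RPKM in Piwil1+/-. Markers of meiotic entry summed to 115 RPKM in Piwil1-/- and 99.8 RPKM in Piwil1+/-, with log2 ratios from -0.052 (Gm4969) to 0.23 (Meioc) over 4 genes. Pachytene markers summed to 1800.3 RPKM in Piwil1-/- and 1975 RPKM in Piwil1+/-, from -0.29 (Pgk2) to 0.43 (Ybx2) over 7 genes. Most of this sum was Ldhc, at 1479 RPKM in Piwil1-/- and 1638 RPKM in Piwil1+/-. The median log2 ratio of the pachytene list was -0.016, with 3 genes above 0 and 4 below. The members' small differences thus stand beside a library with less RNA of spermatid markers, and the part of that in the members' ratios was not tested.

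List medians of the other cell types lay between -0.39 (red blood cells) and 0.095 (Sertoli cells), against -1.28 for the spermatid markers. Spermatogonial markers summed to 11.3 RPKM in Piwil1-/- and 11.7 RPKM in Piwil1+/-, from -0.077 (Uchl1) to 0.036 (Kit) over 3 of 8 genes. Sertoli markers summed to 157 RPKM in Piwil1-/- and 152 RPKM in Piwil1+/-, from 0.0044 (Clu) to 0.46 (Trf) over 5 of 8 genes. Leydig markers summed to 122 RPKM in Piwil1-/- and 147 RPKM in Piwil1+/-, from -0.31 (Cyp11a1) to 0.064 (Star) over 4 of 5 genes. Peritubular markers summed to 30.01 RPKM in Piwil1-/- and 27.9 RPKM in Piwil1+/-, with log2 ratios from -0.11 (Cnn1) to 0.14 (Acta2) over 3 genes. Of leukocyte and endothelial markers, Adgre1 (-0.024) and Cdh5 (-0.020) were the ones tested, and of red blood cell markers Hbb-bs (-0.60) and Alas2 (-0.18). Summed levels were 2.96 RPKM in Piwil1-/- and 2.79 RPKM in Piwil1+/- for leukocytes and, for red blood cells, 5.18 RPKM in Piwil1-/- and 7.49 RPKM in Piwil1+/-. Endothelial markers summed to 2.63 RPKM in Piwil1-/- and 2.81 RPKM in Piwil1+/-. No marker was at 0 in both libraries.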

How the data were processed

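Testis RNA of 1 Piwil1-/- and 1 Piwil1+/- library was compared. Per the labels' protocols, ribosomal RNA was removed with a Ribo-Zero kit and strand-specific libraries were made with a TruSeq kit. The authors deposited RPKM per Ensembl gene identifier, per the file headers. The submitters' processing notes name STAR, Bowtie and mm10; neither the read counter nor the annotation and strand setting is given in the sources used here. The members and gene lists were chosen with earlier results of these data known.

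Symbols were matched to 22444 of 22808 identifiers, ignoring version suffixes, and list symbols also through RefSeq synonyms. Coordinates and promoter windows are those of RefSeq on GRCm38.p6. A log2 ratio is log2 (RPKM + 1) of Piwil1-/- less that of Piwil1+/-, and genes tested reach an RPKM of 1 in at least 1 library. All 9 members, the highest and lowest log2 ratio of each list, and the genes nearest the members were named by rule. Tex11 and Sycp2l were named outside this rule. Tnp1, Prm1, Prm2 and the genes in the closing observations were chosen after their values were seen.

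Values carry 10 significant digits. The ratio of the library totals was read from 251 genes with few reads, and the totals came from 109 short genes whose RefSeq span, below 1500 bp, was taken as gene length. The smallest gene length that made both read numbers whole was then found for 16548 of 16558 genes above 0 in both libraries. A factor common to length and reads is lost, so read numbers are minima. Fold intervals are exact (Clopper-Pearson) binomial intervals at 95%, and those of quotients of level ratios are exact conditional intervals. PCR copies are not independent, so the intervals cover counting error only. The method was tested on simulated data. Python 3.11.15, NumPy 2.4.6, pandas 2.3.3 and SciPy 1.17.1 were used. Other pseudocounts, scalings and no filter were tried.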

Additional observations from a re-analysis of the deposited data

How the results depend on the processing

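No paired analysis was possible because each genotype had 1 library, and for the same reason no library could be left out. Other pseudocounts (0.1 and 5 RPKM), recentring on the median of all genes tested, trimmed-mean rescaling, no filter, and a rescaling of both libraries to a common summed RPKM (chosen after the data were seen) were tried. None of 86 recomputed log2 ratios and medians changed sign. For the 9 genes this was fixed in advance and shows nothing of robustness. A pseudocount cannot change the sign of a gene's ratio, and the rescalings shifted ratios by at most 0.019. The member ratio nearest 0, that of Syce1, was -0.040. Of 134 recomputed values, 119 stayed within a set margin, which for counts was 1.5 times. For a gene the margin was the half-width of its counting interval, and for the median of the 9 genes that of Hormad2. For a list median it came from the pooled reads of the list's genes tested. The margins of medians are thus not the counting error of a median. Recentring lowered log2 ratios by 0.0055 and trimmed-mean rescaling by 0.0050. The common summed RPKM raised those of the 9 genes by at most 0.019, and less for the low ones. With the common summed RPKM, Sycp2 stood at 0.13, the cohesin median at 0.070 and the unsynapsed chromatin median at 0.20. The median of the synapsis list was 0.14 with a pseudocount of 0.1, 0.064 with 5 and 0.084 without a filter. With a pseudocount of 5, the cohesin median was 0.031 and the unsynapsed chromatin median 0.16. With 0.1, 332 genes were at least 2-fold lower and 68 higher, and 1 member, Syce3, was at least 1.2-fold lower. With 5, 48 genes were at least 2-fold lower and 10 higher, and 719 were at least 1.2-fold lower and 305 higher. A larger pseudocount shrinks ratios of low genes by construction. For the other values that moved, the cause was not tested. Syce3 and Tex12 had the widest counting intervals of the 9 genes, from read numbers known only as minima, and every gene is limited by the single library per genotype.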

Other observations

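Some genes were listed near 0 in a table that holds other markers of the same cells. Insl3, a hormone of Leydig cells, had 0.0541 RPKM in Piwil1-/- and was listed at 0 in Piwil1+/-, beside Cyp17a1, a steroid enzyme of the same cells, at 50.8 RPKM in Piwil1-/- and 63.04 RPKM in Piwil1+/-. Sox9, a Sertoli cell factor, was at 0.0327 RPKM in Piwil1-/- and 0.0315 RPKM in Piwil1+/-, beside Clu at 133 RPKM in both. H2afx, the histone variant marked by ATR on unsynapsed axes, was at 0.393 RPKM in Piwil1-/- and 0.223 RPKM in Piwil1+/-, beside Atr at 193 RPKM in Piwil1-/- and 125 RPKM in Piwil1+/-. These genes were chosen after their values were seen. Whether the low levels of Syce3 and Tex12 have the same origin was not tested.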
